A study of Rattus norvegicus with 24 samples.

Results

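The neurotrophin system of thoracic propriospinal (TPS) neurons was described through 7 genes. They were the ligands Bdnf and Ntf3, the receptors Ntrk2, Ntrk3 and Ngfr, the p75-associated protein Ngfrap1 and the sorting receptor Sort1. Each gene was taken by its symbol in the annotation of the array, and each had 1 probe, so 7 of 27342 probes were used, for 7 of the 14324 genes named on the array. Ngfrap1 stands in that annotation under its present symbol Bex3 and was joined through the gene ID.

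TPS neurons lie in the thoracic cord and send axons down to the lumbar enlargement. In all 24 rats they were labelled from there with the retrograde tracer Fluoro-Gold, and a complete transection at T9 then cut these axons in the injured animals. Labelled neurons were collected one by one by laser microdissection, and amplified total RNA of each animal was hybridized to 1 Affymetrix Rat Gene 1.0 ST array. All animals were female Long Evans rats aged 77 ± 10 days per the labels. Of the transected animals, 4 were taken 3 days post-injury (p.i.), 4 after 1 week, 2 after 2 weeks and another 2 after 1 month. Uninjured, labelled animals formed the 4-day, 2-week and 1-month controls (n = 4 each), which the methods place at 10 days, 3 weeks and 5 weeks after labelling. The 3-day and 1-week groups were both compared with the 4-day controls, so an error in those controls enters both comparisons, and the 2 later groups were compared with the controls of their own time. The 1-week animals had been labelled for 2 weeks when taken, which is longer than their controls.

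Neurotrophins are secreted proteins that keep neurons alive and shape their axons and synapses. BDNF binds TrkB and NT-3 binds chiefly TrkC, both receptor tyrosine kinases. The unprocessed proneurotrophins bind p75 together with sortilin instead, a pairing known to be able to lead to cell death. In the spinal cord Ntrk2 is transcribed by neurons and, in its truncated form without kinase, abundantly by astrocytes. One value for each gene cannot tell these forms apart.

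All values are log2 of the deposited intensities, and a difference of 1 is a doubling. The medians of the 24 arrays lay between 6.20 and 6.35. Transcripts of neurons were abundant on every array, with a mean over 16 neuronal markers of 9.98 to 10.46. Transcripts of other cells were present as well. Over the arrays the mean of 11 astrocyte markers was 9.52 to 10.34. That of 10 markers of oligodendrocytes and myelin was 9.70 to 10.17, and both overlapped the neuronal range. The mean of 13 markers of microglia and macrophages was 8.62 to 9.13 at 3 days p.i. against 7.10 to 8.36 in the 4-day controls. Within the latter, control 3 stood lowest for microglial, astrocytic and myelin markers, and controls 3 and 4 had the lowest quality weights of all arrays (0.328 and 0.477). Because the arrays report RNA pooled over cells, fewer cells that express a gene and less RNA in each of them cannot be told apart.

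Bdnf has several promoters, each with its own first exon, and the array reports the gene as a whole. RefSeq holds 6 Bdnf promoter windows of 300 bases in the rat build GRCr8, all on chromosome 3 and the plus strand. Windows found for Bdnf, Ntf3, Ngfrap1 and Sort1, 11 in all, were searched for TGACGTCA and TGACGTGA on either strand. These are forms of the cAMP response element, the site of the activity-dependent factor CREB, and other forms were not searched for. The window below is shown because it alone held a match. It spans chr3:116637608-116637907. The capitals mark the element TCACGTCA, which begins 38 bases before the start site. Bdnf itself is annotated at chr3:116619633-116670212.
Bdnf promoter window: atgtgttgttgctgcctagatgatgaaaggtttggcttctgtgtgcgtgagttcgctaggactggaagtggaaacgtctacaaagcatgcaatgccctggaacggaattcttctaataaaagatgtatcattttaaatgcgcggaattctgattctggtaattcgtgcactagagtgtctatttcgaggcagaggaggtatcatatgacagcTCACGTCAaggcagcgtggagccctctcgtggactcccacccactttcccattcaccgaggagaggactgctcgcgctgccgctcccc
The letters TCACGTCA, or TGACGTGA on the opposite strand, occurred in 134 of 33469 promoter windows of the same length (0.4%). The palindromic form TGACGTCA occurred in 612 (1.83%) and in none of the 11. These matches describe sequence and were not set against any array value, since the probe does not show which promoter was in use.

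Bdnf was the gene of the 7 whose level departed most from the matched controls, and it did so in opposite directions early and late, but neither difference passed the test. Its mean over all arrays was 6.33, inside the range of the array medians (6.20 to 6.35). In the 4-day controls Bdnf stood at 6.25, 6.24, 6.70 and 6.54. At 3 days p.i. it stood at 5.94, 5.94, 6.13 and 6.15. All 4 injured animals were lower than all 4 controls, so the groups did not overlap. The log2 difference was -0.40 (SE 0.12, 95% interval -0.64 to -0.16), which is 0.76 of the control level. From the limma fit over 23240 probes its adjusted p was 0.0674, on the far side of the threshold of 0.05. In this comparison 671 probes passed, 2.89% of those tested, and 5.51% had groups that did not overlap. The exact 2-sided permutation test gave p = 0.0286, the smallest that 4 arrays against 4 allow. Control 3 carried part of the difference, which was -0.31 without it (adjusted p = 0.182) and -0.21 without controls 3 and 4 together (adjusted p = 0.562), the latter chosen after the data were seen. Without control 2 it was -0.46, with an adjusted p of 0.0479.

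At 1 week p.i. Bdnf was back among the control values, at 6.30, 6.24, 6.36 and 6.59. The difference from the 4-day controls was -0.06 (SE 0.12, 95% interval -0.30 to 0.18). Here 0% of probes passed the test, with 1031 probes at an unadjusted p under 0.05, and 1.76% had groups that did not overlap. Set against each other directly, every 3-day animal was below every 1-week animal, by a mean of -0.33 (SE 0.12, adjusted p = 0.168). That difference does not use the controls, but its SE and adjusted p rest on a spread estimated over all groups, controls among them. In it 574 probes passed (2.47%) and 6.68% did not overlap.

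Both animals at 2 weeks p.i. gave 6.52, inside the range of the 2-week controls (6.33 to 6.55). The 2 animals at 1 month p.i. gave 6.45 and 6.71. Their 4 controls gave 6.27, 6.11, 5.89 and 6.37, all lower than both. The log2 difference was 0.42 (SE 0.14, 95% interval 0.13 to 0.71), or 1.34-fold. In the limma fit its unadjusted p was 0.00733 and its adjusted p was 1, and 0% of probes passed the test at this time, with 799 at an unadjusted p under 0.05. With 2 arrays against 4 the exact permutation test cannot go below 0.0667 and gave p = 0.133. Groups that did not overlap were found for 13.5% of probes, so this pattern was common here. Without 1 month animal 2 the difference was 0.29, and with animal 1 left out it was 0.55.

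The 1-month controls, against which this value was taken, read lower for Bdnf on average than the earlier controls. Uninjured animals at that time averaged 6.16 for Bdnf, against 6.44 in both the 4-day and the 2-week controls. The difference between 1-month and 4-day controls was -0.27 (SE 0.12, adjusted p = 0.318), where 1 probe passed the test (0.0043%), or 566 without 4-day control 4. Between 1-month and 2-week controls the difference was -0.28 (SE 0.12, adjusted p = 0.108), where 2366 probes passed (10.2%). With all 12 controls pooled, the difference at 1 month p.i. was 0.23 (adjusted p = 0.797), and that at 3 days p.i. was -0.31 (adjusted p = 0.0750).

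The change between the early and the late difference of Bdnf was tested directly. The 1-month difference exceeded the 3-day difference by 0.82 (SE 0.18, 95% interval 0.44 to 1.20). Its unadjusted p was 0.000215 and its adjusted p 0.110, while 21 probes passed this test (0.0904%). Leaving out each array in turn gave 0.69 to 0.94, with adjusted p-values of 0.0496 (without 3-day animal 3) to 0.525 (without 1 month animal 2). Without 4-day controls 3 and 4 it was 0.63 (adjusted p = 0.333).

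Over the 24 arrays, Bdnf ran against the mean of 7 markers of fibroblasts and meninges (Pearson r = -0.651). That list averaged 7.31 at 3 days p.i. and 6.66 in the 4-day controls. Bdnf also ran against the lists of oligodendrocytes and myelin (r = -0.453) and of microglia and macrophages (r = -0.416). For endothelium and pericytes r was -0.399, and for Schwann cells -0.339. Its relation to the markers of astrocytes (r = -0.137), motor and cholinergic neurons (r = 0.108) and neurons (r = 0.063) was weak. The points share groups and arrays, and the part of these cells in the Bdnf values was not tested. The probes most like Bdnf in pattern were those of Crabp1, a retinoic acid binding protein (r = 0.805), Vom1r101, a vomeronasal receptor (r = 0.748), and Resp18, a neuroendocrine secretory protein (r = 0.730), among 13706 probes with 1 symbol.

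**Figure D1:**
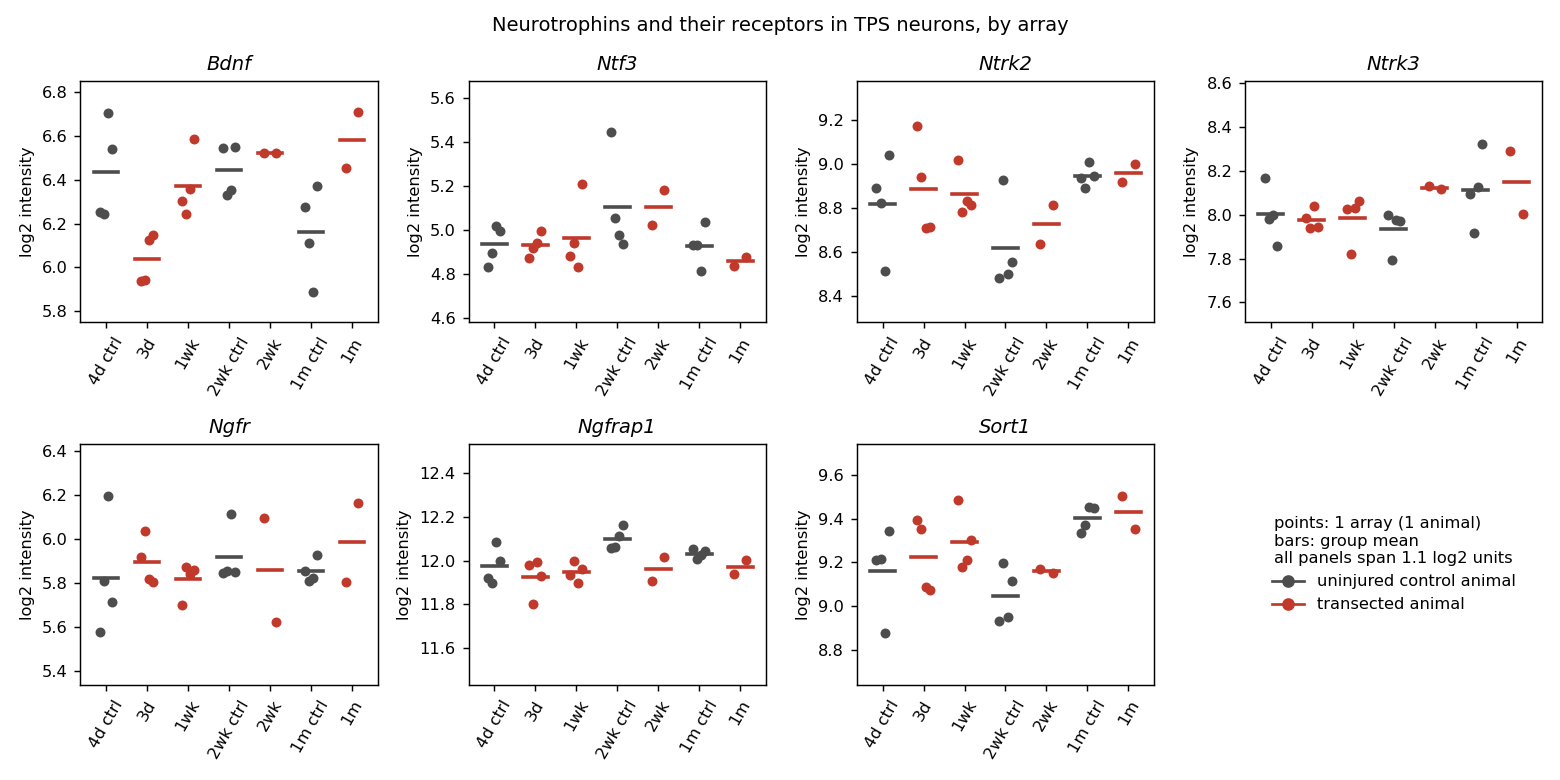
Log2 intensity of each of the 7 genes on every array, in the order of time. Points are single animals, bars are group means, grey marks uninjured controls and red marks transected animals, and every panel spans the same range. All 4 Bdnf values at 3 days lie below those of the 4-day controls, and both values at 1 month lie above those of the 1-month controls.

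Ntf3 encodes NT-3, the ligand of TrkC. Its mean over all arrays was 4.97, under the limit of 5.05 set on low values, so it was not among the probes tested. All 24 values lay between 4.81 and 5.44, and the highest was that of 2-week control 1. At 3 days p.i. it ranged from 4.87 to 4.99 and in the 4-day controls from 4.83 to 5.02. In a fit with no limit on low values the 4 differences ran from -0.07 (SE 0.12) at 1 month to 0.03 (SE 0.10) at 1 week. A change of Ntf3 was not detectable at this signal.

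Neither Trk receptor gene passed the test at any time after transection. Ntrk2, which encodes TrkB, read 8.89, 8.82, 8.52 and 9.04 in the 4-day controls. It read 9.18, 8.94, 8.71 and 8.72 at 3 days p.i. and 9.02, 8.78, 8.83 and 8.81 at 1 week. These groups overlapped throughout. The differences were 0.07 (95% interval -0.18 to 0.31) and 0.04 (95% interval -0.20 to 0.29). At 2 weeks p.i. the difference was 0.11 (95% interval -0.19 to 0.41) and at 1 month 0.01 (95% interval -0.29 to 0.31). The lowest of the 4 adjusted p-values was 0.887, and the groups overlapped at the later times too, with values of 8.64 and 8.81 at 2 weeks p.i. and 8.917 and 8.9996 at 1 month.

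Ntrk3, which encodes TrkC, differed by -0.02 (SE 0.09) at 3 days, -0.02 (SE 0.09) at 1 week and 0.03 (SE 0.11) at 1 month. At 2 weeks p.i. its values were 8.13 and 8.12. The 2-week controls gave 7.998, 7.796, 7.977 and 7.972, all of them lower. The difference was 0.19 (SE 0.11, 95% interval -0.04 to 0.41) with an adjusted p of 0.959. At this time 0% of probes passed the test, 1229 probes had an unadjusted p under 0.05, and 17.7% had groups that did not overlap. Ntrk3 read 7.92 to 8.32 in the 1-month controls, so the values at 2 weeks p.i. lay inside the range of other uninjured animals.

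Ngfr encodes p75, the receptor that all neurotrophins share. Its signal was low, with a mean over all arrays of 5.87, under the median of every array (6.20 to 6.35). Its arrays were scattered, from 5.57 to 6.19 among the 4-day controls alone. The groups overlapped at every time. The largest difference, 0.13 at 1 month p.i. (SE 0.15, 95% interval -0.17 to 0.44), came from values of 5.80 and 6.17 against controls of 5.81 to 5.93. At 3 days p.i. the difference was 0.07 (SE 0.12) and at 1 week it was -0.00 (SE 0.12).

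Ngfrap1 encodes a small protein that binds the death domain of p75. All its values lay between 11.80 and 12.16, a range of 0.36. It was lower than its controls on average at each of the 4 times. The differences were -0.05 (SE 0.06), -0.03 (SE 0.06), -0.13 (SE 0.07) and -0.06 (SE 0.07) from 3 days to 1 month. At 2 weeks p.i. the values of 11.91 and 12.02 lay below all 4 controls (12.06, 12.06, 12.11 and 12.16). At 1 month p.i. the values of 11.940 and 12.004 lay below all 4 controls (12.052, 12.006, 12.025 and 12.042), the nearest by less than 0.01. Groups that did not overlap were found for 17.7% and 13.5% of all probes at these times. None of these passed the test, and the adjusted p at 2 weeks was 0.952. The mean of the 4 differences was -0.07 (SE 0.04, adjusted p = 0.646), where 94 probes passed (0.404%). Ngfrap1 ran against the microglia and macrophage markers over the 24 arrays (r = -0.751). It also ran against those of fibroblasts and meninges (r = -0.523) and of astrocytes (r = -0.472). For the other lists r lay between -0.261 (oligodendrocytes and myelin) and 0.217 (neurons). Microglial markers were higher on average in all 4 injured groups than in their controls. At 1 week their list means (8.11 to 8.60) overlapped those of the 4-day controls (7.10 to 8.36). The part of any of these cells in the Ngfrap1 values was not tested.

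Sort1 encodes sortilin, the partner of p75 for proneurotrophins and a sorter of BDNF inside the cell. It was higher than the matched controls on average at all 4 times, by 0.06 (SE 0.10), 0.13 (SE 0.10), 0.11 (SE 0.12) and 0.03 (SE 0.12), and its groups overlapped each time. With 1 array left out the difference at 1 week ranged from 0.04 to 0.19, and those at 3 days and 1 month changed sign. At 1 week p.i. it read 9.48, 9.18, 9.21 and 9.30 against 9.21, 9.21, 8.88 and 9.34 in the 4-day controls. The adjusted p was 0.999.

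**Figure D2:**
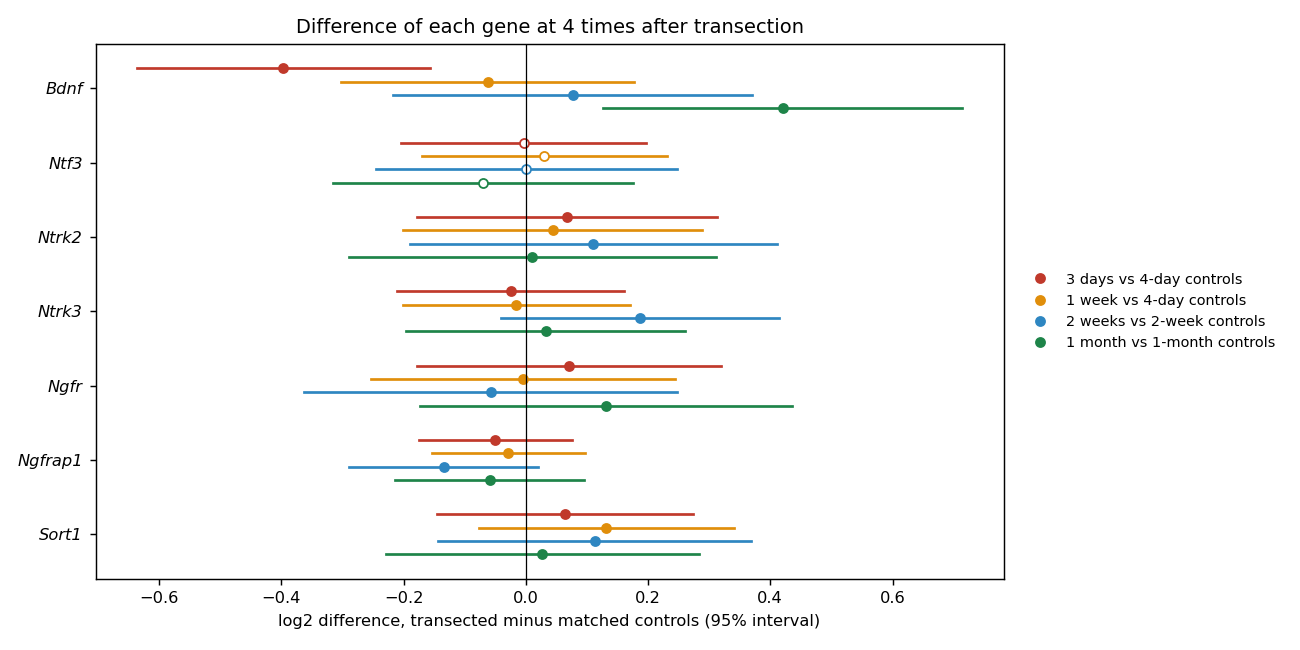
Log2 difference between transected animals and matched controls for each gene at 4 times, with 95% intervals from the limma fit. Open points for Ntf3 come from the fit with no limit on low values. Intervals for Bdnf lie below 0 at 3 days and above 0 at 1 month, and all others include 0.

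In all, 0 of the 6 genes tested passed the threshold in any of the 4 comparisons. At an unadjusted p under 0.05, limma gave 1 of the 6 at 3 days and 1 at 1 month, Bdnf both times, where 14.2% and 3.44% of all probes were under that value. By the methods' t-test, which the study applied to genes also measured by PCR, Bdnf at 3 days had an adjusted p of 0.493 over all probes, and 8.61% of probes had an unadjusted p under 0.05.

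Between uninjured animals Sort1 passed the test and Ntrk2 did not. Sort1 read 9.33, 9.37, 9.45 and 9.45 in the 1-month controls. It read 8.93, 9.20, 8.95 and 9.12 in the 2-week controls, all of them lower. The difference was 0.35 (SE 0.10, 95% interval 0.14 to 0.56, 1.28-fold, adjusted p = 0.0321), and it was the only one of the 6 tested genes to pass. In this comparison 2366 probes passed (10.2%), or 614 without 2-week control 3, and 23% did not overlap. Leaving out each array in turn gave differences of 0.31 to 0.40 and adjusted p-values of 0.0239 to 0.0968, which were above 0.05 without 1-month control 2, 3 or 4 or 2-week control 1 or 3, and after cyclic loess the difference was 0.21 (adjusted p = 0.146). Ntrk2 read 8.94, 8.89, 9.01 and 8.95 in the 1-month controls and 8.48, 8.93, 8.50 and 8.55 in the 2-week controls. The difference was 0.33 (SE 0.12, adjusted p = 0.0702), and 2-week control 2 alone reached the level of the 1-month controls. Without that array the difference was 0.44 and the adjusted p 0.0224.

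Sort1 and Ntrk2 moved together over the 24 arrays (r = 0.876, and r = 0.856 within groups). Sort1 followed the mean of 10 markers of oligodendrocytes and myelin (r = 0.791) and Ntrk2 followed the same list (r = 0.760). For the 9 markers of endothelium and pericytes the values were 0.781 and 0.752, for the 11 astrocyte markers 0.717 and 0.739, and for the 16 neuronal markers 0.573 and 0.476. Between the same 2 control groups 3 of 10 myelin markers and 6 of 11 astrocyte markers passed the test, all higher at 1 month, with medians of 0.29 and 0.34. Of the neuronal markers 4 of 16 passed, also higher, and of the endothelial markers 1 of 9 passed and all 9 were higher on average. The median over all probes was -0.05. The part of RNA from these other cells in the Sort1 and Ntrk2 values was not tested. Among the probes most like Ntrk2 were those of the elongation factor Eef2 (r = 0.887) and the actin regulator Abi1 (r = 0.885), and among those most like Sort1 was the phosphatase Ppp1ca (r = 0.877). The highest values for the others were 0.858 for Ngfrap1 with Mcts1, 0.802 for Ntf3 with Btbd16, 0.761 for Ngfr with Nhlh1 and 0.724 for Ntrk3 with Zfp39.

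**Figure D3:**
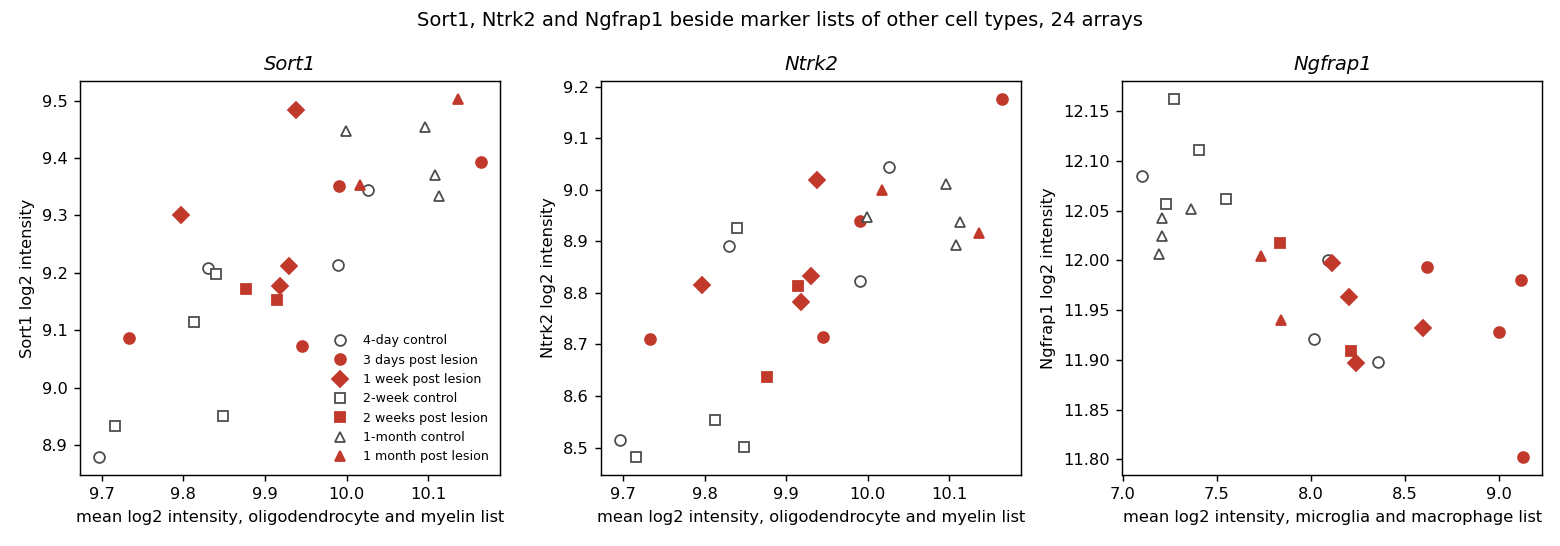
Log2 intensity of Sort1 and Ntrk2 against the mean log2 of 10 markers of oligodendrocytes and myelin, and of Ngfrap1 against that of 13 markers of microglia and macrophages. Each symbol is 1 of 24 arrays, open for controls and filled for transected animals. Sort1 and Ntrk2 rise with the myelin list (r = 0.791 and 0.760), and Ngfrap1 falls with the microglial list (r = -0.751).

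The wider pathway was described through 5 lists that held 77 tested genes. At 3 days p.i. 5 of the 77 passed the test (6.49%, against 2.89% of all probes), of which 3 rose and 2 fell, and at the 3 later times 0 passed. The lists were written with earlier results of these data known, so these shares cannot show enrichment. Atf3 and Spry2, which are among the genes that passed, also stand in the study's own tables of the most changed genes. In a fit that held none but the compared groups 1 passed, the methods' t-test gave 0, and all 12 controls pooled gave 10, where 2117 of all probes passed. Without 4-day controls 3 and 4 the count was 3, and at 1 week it was 4 against the 2-week controls in place of the 4-day controls. Of the other neurotrophins, receptors and relatives of Ngfrap1, 0 of 8 passed at any time. The lowest p-values in that list were for Bex4, a relative of Ngfrap1, at -0.59 (SE 0.22, adjusted p = 0.178) at 3 days, and for Sorcs2, a sortilin relative, at 0.37 (SE 0.15, adjusted p = 1) at 1 month.

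Of 26 adaptors and effectors of the Trk receptors, 1 passed as lower at 3 days and 0 as higher, with a list median of -0.04. By sign alone 12 were higher and 14 lower. The one that passed was Camk4, a calcium-dependent kinase of the nucleus that phosphorylates CREB. It averaged 6.75 ± 0.12 (SD, n = 4) at 3 days p.i. against 7.20 ± 0.13 (SD, n = 4) in the 4-day controls. The difference was -0.46 (SE 0.08, adjusted p = 0.00348), and at 1 week it was 0.16 (SE 0.08). Set directly against the 1-week animals, the 3-day animals were lower by a mean of -0.62 (SE 0.08, adjusted p = 0.00025). The controls do not enter that difference, but they enter the spread behind its SE and adjusted p. Without 4-day controls 3 and 4 the difference of the 3-day animals from the controls was -0.42 (adjusted p = 0.0563). Camk2a, another calcium-dependent kinase, differed by -0.29 (SE 0.09, adjusted p = 0.0767).

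Of 20 adaptors and effectors of p75, 0 passed at any time. Lingo1, which forms a receptor complex with p75 and the Nogo receptor, differed by -0.20 (SE 0.09) at both 2 weeks and 1 month p.i., with adjusted p-values of 0.916 and 1. At 3 days it differed by -0.07 (SE 0.08) and at 1 week by 0.05 (SE 0.08). Its means were 6.937 at 2 weeks p.i. and 6.999 at 1 month. Uninjured animals averaged 6.976 in the 4-day, 7.137 in the 2-week and 7.202 in the 1-month controls. Ikbkb, a kinase of the NF-kappaB pathway, differed by 0.29 (SE 0.12, adjusted p = 0.999) at 1 week.

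Of 10 genes that process proneurotrophins, Mmp3 passed as higher at 3 days and 0 passed as lower, with a list median of -0.05. By sign alone 4 were higher and 6 lower. Mmp3 is a secreted metalloprotease that can cleave proneurotrophins. It averaged 6.45 ± 0.35 (SD, n = 4) against 5.78 ± 0.19 (SD, n = 4), a difference of 0.67 (SE 0.15, adjusted p = 0.0169). At 1 week it differed by 0.60 (SE 0.15, adjusted p = 0.951), and the mean of its 4 differences was 0.46 (SE 0.09, adjusted p = 0.0270). Its adjusted p at 3 days was above 0.05 without 3-day animal 1, 2 or 4 or 4-day control 1, up to 0.0652. Pcsk5, a proprotein convertase, differed by 0.23 (SE 0.09, adjusted p = 0.999) at 1 week.

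Among 13 genes known to respond to Trk signalling, 2 passed as higher and 1 as lower at 3 days, with a list median of -0.09. By sign alone 5 were higher and 8 lower. Atf3, a transcription factor induced by nerve injury, rose by 2.17 (SE 0.27, adjusted p = 9.55e-05). It stood at 0.96 (SE 0.27, adjusted p = 0.999) above controls at 1 week and 1.604 (SE 0.33, adjusted p = 0.431) at 2 weeks. The 2 animals at 2 weeks read 6.41 and 8.18, and the difference was 0.72 (adjusted p = 1) without animal 3 and 2.49 (adjusted p = 0.00185) without animal 4. Dusp6 and Spry2 both restrain the ERK kinases downstream of Trk and other receptors, and they went opposite ways. Dusp6 rose by 0.75 (SE 0.18, adjusted p = 0.0277) and Spry2 fell by 0.75 (SE 0.13, adjusted p = 0.00158). Dusp6 averaged 7.62 ± 0.45 (SD, n = 4) at 3 days p.i. and 6.87 ± 0.22 (SD, n = 4) in the 4-day controls. For Spry2 the means were 8.55 ± 0.24 (SD, n = 4) and 9.31 ± 0.29 (SD, n = 4). The call of Dusp6 was lost without 3-day animal 2 or 4 or 4-day control 1, 3 or 4 (adjusted p up to 0.115). Against the 1-week animals, the 3-day animals differed by -0.63 (SE 0.13, adjusted p = 0.0102) for Spry2, 0.82 (SE 0.18, adjusted p = 0.0186) for Dusp6 and 1.22 (SE 0.27, adjusted p = 0.0164) for Atf3. The controls enter the spread behind these SEs and adjusted p-values, but not the differences. At 1 month p.i. Spry2 differed by -0.17 (SE 0.16) and Dusp6 by 0.04 (SE 0.23). Microglial markers were higher at 3 days as well, with 9 of 13 past the test (median 1.12), while 3 of 11 astrocyte markers passed as lower (median -0.20). Of the markers of fibroblasts and meninges, 1 of 7 passed as higher (median 0.48), and by sign alone 5 were higher and 2 lower. The part of these cell types in these pathway genes was not tested.

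**Figure D4:**
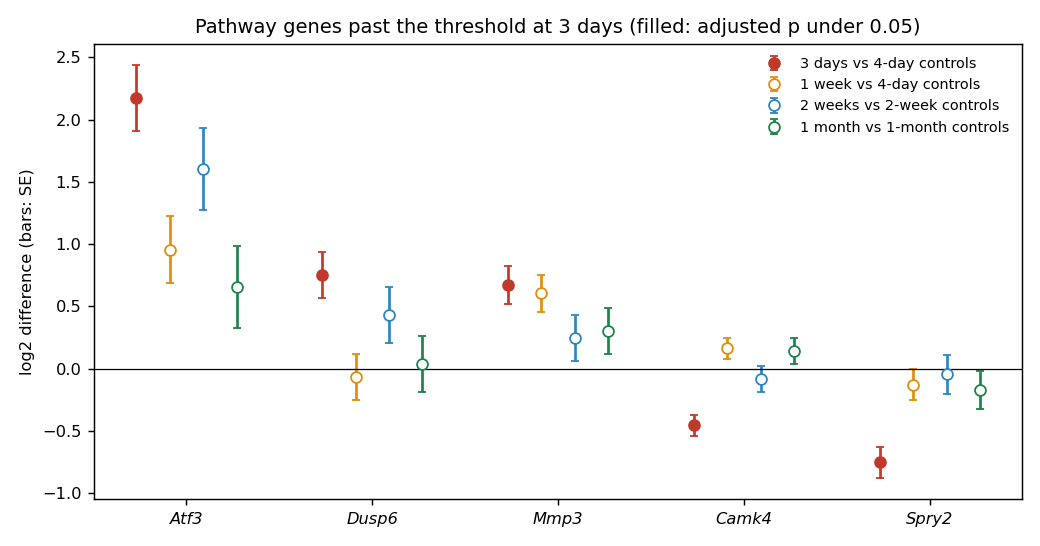
Log2 difference from the matched controls, with SE, of the 5 pathway genes past the threshold at 3 days. Filled points had an adjusted p under 0.05. Atf3, Dusp6 and Mmp3 lie above 0 at 3 days, Camk4 and Spry2 lie below 0, and no point at a later time is filled.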

How the data were processed

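Fluoro-Gold-labelled TPS neurons of 24 rats were profiled on 1 array each. The authors normalized the arrays by RMA, and the deposited values are intensities on a linear scale, from 17 to 7980, with 2337 values at 17 and none of these in the genes described. Raw arrays were not used here. Of 27342 probes, 15097 had 1 gene symbol in the platform annotation, 323 had several and 11922 had none. The probe of Lingo1 was named from the study's own gene list.

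Intensities were taken to log2, and probes with a mean above 5.05 were kept (23240). A linear model with 1 mean for each of 7 groups was fitted by lmFit and eBayes of limma 3.58.1 (R 4.3.3) and Benjamini-Hochberg adjustment over all probes kept, and an adjusted p under 0.05 was called. The 3-day and 1-week groups were set against the 4-day controls, and the others against the controls of their time. Exact permutation tests were 2-sided. Python 3.11.15 with pandas 2.3.3, numpy 2.4.6, scipy 1.17.1 and matplotlib 3.10.9 was used for the rest. The scripts were tested on simulated data. Each limma p-value sets a difference between groups against the spread between animals, pooled over the 7 groups and moderated across probes. The precision of that spread is limited by how many arrays there are.

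The genes and lists were chosen with earlier results of these data known. Of the lists, genes past the threshold in any of the 4 comparisons and the 2 with the smallest p were named. For likeness, the probes with the highest Pearson r over 24 arrays were named. Alternatives were other limits on low values, a trend with robust moderation, array quality weights, cyclic loess, a replicate block, pooled controls, the compared groups alone, the methods' t-test (which the study ran per time on genes also measured by PCR, while its test across genes was a 2-way ANOVA of treatment and time, not run here), 2-week controls for the 1-week group and each array left out. The labels do not say what the replicate numbers mean, and the values gave no sign that they pair the animals. Arrays of the same number had a mean correlation of 0.0215 over 55 pairs, and others -0.00631 over 189.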

Additional observations from a re-analysis of the deposited data

Results flagged for a closer look

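Among 35 sets of 4 values (7 genes in each of the groups with 4 arrays), 4 values on 3 arrays stood far from the rest of their set, and chance alone sets apart about 1 in 20. Ntrk2 in 2-week control 2 (8.93) was far above the other 2-week controls. Ntrk3 was far below the rest in the same array (7.80) and in 1 week animal 2 (7.82). Ngfr in 2-week control 3 (6.12) was far above the other 2-week controls.

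For Bdnf the differences from controls had opposite signs at 3 days and 1 month, with every 3-day array below its controls and every 1-month array above its controls. Groups that did not overlap were found for 5.51% and 13.5% of all probes at these times. Bdnf averaged 6.16 in the 1-month controls, against 6.44 in both earlier control groups. With all controls pooled, its difference at 1 month p.i. was 0.23. The 1-month difference exceeded the 3-day difference by 0.82 (limma, adjusted p = 0.110).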

How the results depend on the processing

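Of 398 values of the 7 genes under alternatives in the 4 comparisons, 360 kept direction and side of the threshold, 37 changed sign and 1 passed the threshold (Bdnf at 3 days without 4-day control 2). The values that changed sign had been 0.13 or smaller in size. At 3 days Ntrk3 was 0.0151 after cyclic loess, and Ngfrap1 was 0.0169 without 4-day controls 3 and 4, a setting chosen after the data were seen. At 1 week Bdnf was 0.0215 with array quality weights, 0.0268 with pooled controls and 0.124 without those controls. For Ngfr at 1 week these were 0.0917 with weights and 0.126 without those controls, and for Ngfrap1 0.0017 and 0.0382. Ntrk3 at 1 week was 0.00696 after cyclic loess and 0.050 against the 2-week controls. With pooled controls Ntrk2 was -0.0678 and Sort1 -0.0420 at 2 weeks.

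With a replicate block, which the numbers do not warrant as a pairing, Ngfr was 0.0301 at 1 week, Ntrk2 -0.0563 and Sort1 -0.0207 at 1 month, no gene of the 6 passed in the 4 comparisons, and Bdnf at 3 days had an adjusted p of 0.0551.

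Leaving out each array in turn, these ranges crossed 0. Bdnf ranged from -0.133 to 0.0265 at 1 week. Ngfr ranged from -0.0115 to 0.195 at 3 days, -0.0870 to 0.119 at 1 week, -0.294 to 0.178 at 2 weeks and -0.0497 to 0.312 at 1 month. Ngfrap1 ranged from -0.0545 to 0.00789 at 1 week. Ntrk2 ranged from -0.0335 to 0.143, -0.0568 to 0.119 and -0.0306 to 0.0521 at 3 days, 1 week and 1 month, and Ntrk3 from -0.0735 to 0.0313, -0.0639 to 0.0409 and -0.112 to 0.176. Sort1 ranged from -0.0299 to 0.125 at 3 days and -0.0485 to 0.102 at 1 month. The number of the 6 genes called ranged from 0 to 1 at 3 days and for the 1-month minus 3-day difference, and from 0 to 2 between 1-month and 2-week controls. The last count was 3 with array quality weights (Sort1, Ntrk2 and Bdnf) and 0 after cyclic loess.

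Over all probes, calls at 3 days ranged from 419 to 1056 with 1 array left out (without 3-day animals 2 and 3) and numbered 2117 with pooled controls, 286 without 4-day controls 3 and 4, 22 with the compared groups alone and 0 by the methods' t-test. At 1 week they numbered 12 with pooled controls and 240 against the 2-week controls. At 2 weeks they were 37 with weights, at 1 month 2 by the methods' t-test, and between 1-month and 2-week controls 614 to 2396 with 1 array left out, 5404 with weights and 1117 after cyclic loess. The causes were not tested. Another probe was not run, since each gene has 1. With 2 animals a group at 2 weeks and 1 month, the intervals were wider than at the earlier times. Differences of the sizes inside each interval were not excluded, and no limit of detection was estimated.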
